A study of Mus musculus with 24 samples.

Results

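Mutant embryos that lost Sox9 early and throughout the dorsal forebrain were set directly against mutants that lost it later and in a smaller territory. The 8 libraries compared, of 24 in the series, were all those from E13.5 embryos with both Sox9 alleles floxed. Libraries A1 to A4 came from Sox9fl/fl;Sox1Cre embryos (Sox1Cre mutants) and libraries A17 to A20 from Sox9fl/fl;NestinCre embryos (NestinCre mutants). As a background for differences between the lines, the E13.5 controls Sox9+/+;Sox1Cre (A5 to A8) and Sox9+/+;NestinCre (A21 to A24) were compared in the same way, and 4 E12.5 Sox9+/+;Sox1Cre controls (A13 to A16) served for a comparison of stages. All animals were of a mixed C57BL/6J;MF1 strain and every embryo used here carried a Cre, so no library is free of recombinase. Each library was bulk mRNA sequencing of the dissected archicortex (ARK), the dorsomedial wall of the telencephalon, and had between 18514192 and 26455487 reads on genes among the mutants, with medians of 23016925 for Sox1Cre and 22992273 for NestinCre.

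SOX9 is a transcription factor of neuroepithelial and glial progenitors, needed for neural stem cell formation and for the switch from neurogenesis to gliogenesis. In the ARK it is made in the cortical hem (CH), a signalling centre that secretes WNT and BMP ligands and yields Cajal-Retzius cells and astrocytic progenitors, and in the neighbouring dentate neuroepithelium (DNE), which yields the granule neurons of the dentate gyrus. Sox1Cre was made by placing Cre at the Sox1 gene and recombines across the early neural plate, whereas NestinCre is a transgene driven by Nestin regulatory sequences. NestinCre has little activity in the CH, and in the DNE, where it works by E13.5, it starts later than Sox1Cre. The comparison therefore asks what differs between a deletion that takes in the CH and one that mostly does not. The labels give neither litters nor animals, so p-values measure the spread between these libraries, and Cre line, litter, dissection and strain background cannot be told apart.

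Values are the authors' normalized read counts. A log2 difference is the mean of log2(normalized count + 1) in Sox1Cre mutants minus that in NestinCre mutants, so a negative value is lower in Sox1Cre mutants. The test was limma's, over genes that reached 10 normalized counts in 4 or more of the 8 mutant libraries, and a gene was called at a Benjamini-Hochberg adjusted p under 0.05 over all genes tested. Markers of the labelled tissue were present in all 8 libraries. Emx1 lay between 1960 and 2705 and Emx2 between 4692 and 5338, and the hem ligand Wnt3a between 613 and 1265. Counts differ in gene length, so levels are compared between libraries and not between genes.

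Library A1 stood apart from the other Sox1Cre mutants. Its Ttr, which encodes transthyretin of the choroid plexus, was 5266, against 55499, 70416 and 52673 in A2 to A4 and 42945, 13442, 26759 and 48512 in A17 to A20. The choroid plexus list of 17 genes, of which Ttr was the most abundant, summed to 9270 in A1 and to between 75340 and 101603 in the other 3 Sox1Cre mutants, with 62235, 22720, 40243 and 70852 in the NestinCre mutants. A1 also had the lowest Lmx1a, a hem transcription factor, at 596 against 2019, 1954 and 1161. Meningeal genes summed to 28763 in A1 and to 70578, 55006 and 48265 in A2 to A4, and endothelial and pericyte genes to 10723 in A1 and between 18181 and 22643 in A2 to A4. The mitochondrial transcript mt-Co1 was 224676 in A1 and between 44159 and 52699 in A2 to A4. On the second principal component of the 500 most variable genes, which held 23.8% of the variance, A1 lay at 46.1 and the other 7 libraries between -20.1 and 3.23. RNA of hem, choroid plexus, meningeal, vascular and mitochondrial genes thus moved with this library, and its part in each result was not tested. In bulk tissue, fewer cells of a type and less RNA per cell cannot be told apart. Results that rest on A1 are given with and without it. A1 was set apart on levels of these same genes, so shifts of such genes without it are a description.

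Residual Sox9 did not differ detectably between the mutants. Its level (chr11:112782224-112787760, plus strand) was 3563, 2828, 3384 and 3677 in the Sox1Cre mutants and 3089, 2997, 3083 and 3369 in the NestinCre mutants. The groups overlapped, with means of 3363 ± 376 and 3134 ± 162 (SD, n = 4 each). The log2 difference was 0.10 (95% interval -0.10 to 0.29, limma adjusted p = 0.792). In the controls, where Sox9 is intact, the means were 5578 ± 306 for Sox1Cre and 5152 ± 465 for NestinCre, a log2 difference of 0.12, and the difference between mutants and controls in this line difference was -0.02 (limma adjusted p = 0.998). These counts cover the whole gene, including exons that the floxed allele keeps, and do not measure SOX9 protein or where in the tissue it was lost.

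**Figure D1:**
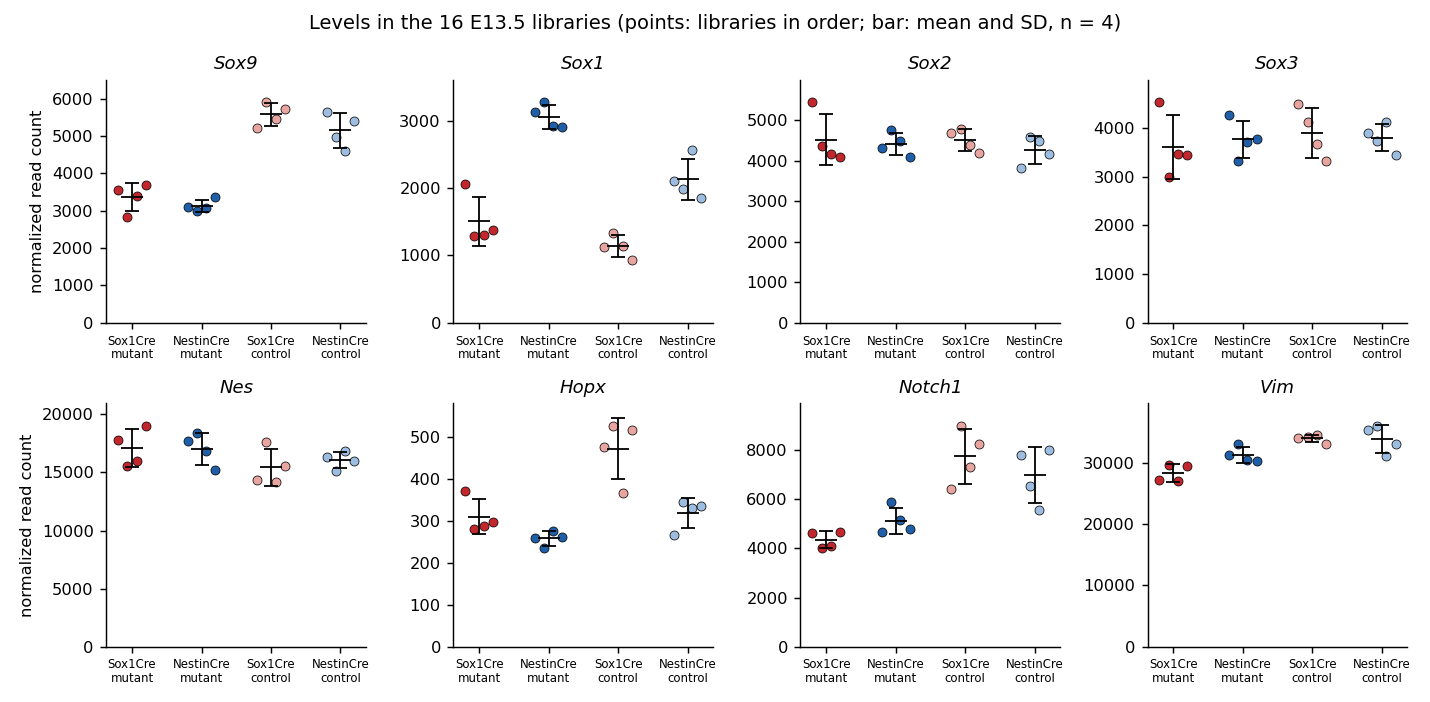
Normalized read counts (y axis) of Sox9, Sox1, Sox2, Sox3, Nes, Hopx, Notch1 and Vim in the 16 E13.5 libraries, by group on the x axis; each point is 1 library and the bars give the mean and SD of 4. Sox9 overlaps between the mutants (means 3363 and 3134) and lies lower than in both control groups, whereas Sox1 separates the Cre lines in mutants and in controls.

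Sox1 was the only gene of the Sox list called between the mutants. It encodes a SOXB1 factor that keeps neural progenitors undifferentiated, together with Sox2 and Sox3. Its level (chr8:12395295-12400126, plus strand) was 2054, 1293, 1297 and 1381 in Sox1Cre mutants and 3126, 3278, 2920 and 2902 in NestinCre mutants, so every Sox1Cre mutant lay below every NestinCre mutant. The fold was 2.03 between means of 1507 ± 367 and 3057 ± 179 (SD, n = 4 each), with a log2 difference of -1.05 (95% interval -1.37 to -0.72, limma adjusted p = 0.0194). The exact permutation test over the 70 assignments of the 8 libraries gave a two-sided p of 0.0286, the smallest it can give. The controls showed the same order, at 1127, 1339, 1133 and 939 with Sox1Cre against 2101, 1981, 2566 and 1859 with NestinCre, a log2 difference of -0.91 (limma adjusted p = 0.0294). The line difference did not differ detectably between mutants and controls (-0.14, limma adjusted p = 0.989). Without A1 the log2 difference was -1.21 (limma adjusted p = 4.68e-05), and leaving out any of A2, A3, A4 or A17 to A20 took the limma adjusted p to between 0.0751 and 0.128. The overlapping transcript Sox1ot had a log2 difference of -0.70, and the strand setting of the counting is not given in the sources used here. Sox2 and Sox3 were not called, with log2 differences of 0.03 (95% interval -0.19 to 0.24) and -0.07 (-0.36 to 0.21).

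Across the 15585 genes tested, 53 (0.340%) were called, 13 higher and 40 lower in Sox1Cre mutants. The groups did not overlap for any of the 53, a pattern that 1077 genes (6.91%) showed in all. At an unadjusted p under 0.05 there were 1518 genes. edgeR on the whole reads recovered from the values called 46, all among the 53, and DESeq2 called 304, which included all 53. The excess of lower genes depended on the method: DESeq2 called 142 higher and 162 lower, limma with all 24 libraries in the fit 80 and 94, limma with array weights 435 and 648, and limma on protein-coding genes 5 and 6. The count rested on single libraries: it was 267 of 15453 (1.73%) without A1, of which 49 were among the 53, but 35 without A3, 28 without A17, 26 without A18, 21 without A19 and 28 without A20. Between the controls 32 of 15475 genes (0.207%) were called. Of the 53 genes, 45 were tested there, 34 had the same sign and 5 were called in both comparisons, namely Sox1, Tcf24, Cfap74, Gm12666 and Gm9008. The share of all tested genes with the same sign in both comparisons was not computed. The line difference itself differed between mutants and controls for 13 of 16086 genes (0.0808%), of which 8 were among the 53 and 1, Gm9008, was protein-coding.

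The gene lists for the biology of the ARK held 389 genes, of which 352 were tested and 1, Sox1, was called (0.340% of all genes were called); 32 of the members had an unadjusted p under 0.05, as did 1518 of all genes. edgeR called 1 and DESeq2 4. Lists are described below by their counts and medians, beside all genes tested, whose median log2 difference was -0.00257 and of which 49.3% were positive.

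Genes of the CH were not called. Of 22 tested, 12 were positive, and the median was 0.02. Wnt8b, a WNT ligand of the hem and hippocampal primordium, was 3495, 8341, 6662 and 4498 in Sox1Cre and 4056, 6811, 4592 and 4154 in NestinCre mutants, with overlapping groups and a log2 difference of 0.18 (95% interval -0.45 to 0.81). Wnt3a differed by 0.05 (-0.49 to 0.58) and Lmx1a by 0.01 (-0.79 to 0.80), and these intervals are wide. Without A1, which had the lowest level of all 3 genes, the median of the list was 0.26 and 19 of 22 were positive. In that fit 2 ligands were called higher, with 1.73% of all genes called. A1 was set apart partly on the hem gene Lmx1a, so these shifts and calls are a description. Wnt5a, a non-canonical WNT, was 2533 in A1 and 3814, 3687 and 3702 in A2 to A4, against 2509, 2713, 2996 and 3103 in NestinCre mutants, and its log2 difference without A1 was 0.40 (limma adjusted p = 0.047). Bmp6 was 241 in A1, 595, 630 and 533 in A2 to A4 and 445, 458, 413 and 404 in NestinCre mutants, with 0.44 without A1 (limma adjusted p = 0.0493). With all 8 libraries neither passed (0.26 and 0.13, limma adjusted p = 0.577 and 0.928).

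No gene of the progenitor lists was called. Of 19 genes of the dentate and hippocampal neuroepithelium, 8 were positive, none was called and the median was -0.02. The LIM factor Lhx2 lay between 12830 and 18684 with a log2 difference of -0.14 (95% interval -0.39 to 0.10), and Emx2, needed for hippocampal growth, differed by 0.04 (-0.08 to 0.16). Of the 24 tested astrocytic progenitor and radial glia genes none was called, 17 were positive and the median was 0.14, beside 0.17 in the controls. Nes, the intermediate filament of neural progenitors and the gene whose sequences drive NestinCre, had means of 17090 and 17039 and differed by 0.00 (95% interval -0.19 to 0.20).

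Hopx, which marks astrocytic progenitors of the hem and later dentate stem cells, was 371.5, 281.7, 287.3 and 297.6 in Sox1Cre mutants and 259.8, 234.2, 275.7 and 262.4 in NestinCre mutants. All Sox1Cre mutants lay above all NestinCre mutants, but by little: the log2 difference was 0.26 (95% interval -0.000989 to 0.51, limma adjusted p = 0.514) between means of 309.5 ± 41.8 and 258 ± 17.4 (SD, n = 4 each). In the controls Hopx had means of 472 ± 73.0 for Sox1Cre and 319 ± 36.1 for NestinCre, a log2 difference of 0.56 (limma adjusted p = 0.239). The change in the line difference from controls to mutants, -0.30, did not pass the threshold (limma adjusted p = 0.804). Vim, another intermediate filament of radial glia, had the opposite sign at -0.14 (95% interval -0.29 to 0.00140, limma adjusted p = 0.515), with all 4 Sox1Cre mutants below all 4 NestinCre mutants.

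The Notch pathway, which holds progenitors in an undifferentiated state, had 22 members tested, 7 of them positive, none called and a median of -0.06 (10 positive and -0.02 without A1). The receptor gene Notch1 was 4625, 4013, 4115 and 4690 in Sox1Cre and 4683, 5879, 5163 and 4783 in NestinCre mutants. Only A4 among the Sox1Cre mutants exceeded a NestinCre mutant, A17, and the log2 difference was -0.23 (95% interval -0.43 to -0.04, limma adjusted p = 0.431). Among 20 neurogenesis genes 15 were positive with none called, and the median of 0.17 fell to 0.02 without A1. The proneural factor Neurod4 was 391.5, 211.8, 221.7 and 369 against 156.1, 182, 199.7 and 99.6, without overlap, and its log2 difference was 0.89 (95% interval 0.26 to 1.53, limma adjusted p = 0.343). Tubb3, a neuronal tubulin, and Dcx, a microtubule protein of migrating neurons, differed by -0.04 (-0.41 to 0.32) and 0.24 (-0.31 to 0.79).

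Most cell cycle genes had negative log2 differences. Of 25 tested, 5 were positive, the median was -0.16, 8 had an unadjusted p under 0.05 and none was called. Over all genes tested, 1518 of 15585 had an unadjusted p under 0.05. Without A1, the median was -0.22 and 6 were called, all lower, where 1.73% of all genes were called. These were the replication licensing genes Mcm2 (-0.23), Mcm5 (-0.24) and Mcm6 (-0.27) and the mitotic genes Aurkb (-0.32), Plk1 (-0.35) and Ccnb1 (-0.24), with limma adjusted p from 0.0202 to 0.0461. Mcm5, for example, was 5769 in A1, 4624, 4808 and 4572 in A2 to A4, and 5637, 5603, 5408 and 5377 in NestinCre mutants, so A1 alone exceeded the NestinCre range. In the controls the median of the list was -0.09.

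Of the other lists no member was called with all 8 libraries. The median was -0.06 for 13 cartilage-type SOX9 targets, whose classical member Col2a1 differed by 0.04 (95% interval -0.25 to 0.34), -0.06 for 30 Wnt receptors, effectors and antagonists, -0.05 for 23 genes of FGF receptors and ERK feedback, 0.01 for 21 of glycolysis and hypoxia and -0.00259 for 15 immediate early and stress genes. Without A1 the medians were 0.09, 0.10, 0.14, 0.02 and 0.08, so all but the glycolysis median turned sign, and of the first 3 lists 8 of 13, 18 of 30 and 17 of 23 members were positive against 5, 11 and 11 with all 8 libraries. The called members without A1, all lower, were Sox6, a SOXD factor that works with SOX9 in cartilage (-0.42, limma adjusted p = 0.0493), Fzd2 (-0.36), Tcf7l1 (-0.42) and Hk2 (-0.46). DESeq2 added 3 growth factor genes to Sox1: Dusp4, an ERK phosphatase (0.71, DESeq2 adjusted p = 0.00586), Cbl, a ubiquitin ligase for receptors (0.36, DESeq2 adjusted p = 0.00711), and Erbb2 (-0.22, DESeq2 adjusted p = 0.0314). Cbl was also higher between the controls (0.64, limma adjusted p = 0.00152).

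Of the lists for other cell types, choroid plexus and erythroid genes had the medians farthest from 0. The choroid plexus median was 0.35 over 16 genes, 14 of them positive, and 1.06 without A1, with none called either way. Erythroid genes had a median of -0.45 with 2 of 15 positive, and -0.13 without A1, and their sums ran from 76278 to 146366 in Sox1Cre and from 99277 to 178026 in NestinCre mutants. Medians were 0.02 for 15 Cajal-Retzius genes, -0.13 for 18 meningeal, -0.08 for 18 endothelial and pericyte and 0.03 for 15 microglial genes. Without A1 they were 0.11, 0.06, 0.11 and 0.21, so the meningeal and endothelial medians turned sign, with 11 and 14 of 18 positive against 5 and 4 with all 8 libraries. Of markers of neighbouring regions, 7 of 17 ventral telencephalic and 7 of 16 diencephalic genes reached the level for testing, with medians of -0.07 and 0.01 (-0.05 and 0.16 without A1). The diencephalic marker Irx3 was called higher without A1 (0.97, limma adjusted p = 0.0475) and was 0.41 with all 8 libraries. The ventral gene Gsx1 had no read in any of the 8 libraries. The sex chromosome list showed 2 embryos with Xist, the transcript of the inactive X chromosome, in each mutant group, at 4616 and 5934 in A2 and A3 and 4046 and 3827 in A18 and A20, and 0 of its 9 tested genes were called. Among the E13.5 controls, 1 library, A23, had Xist (3526).

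**Figure D2:**
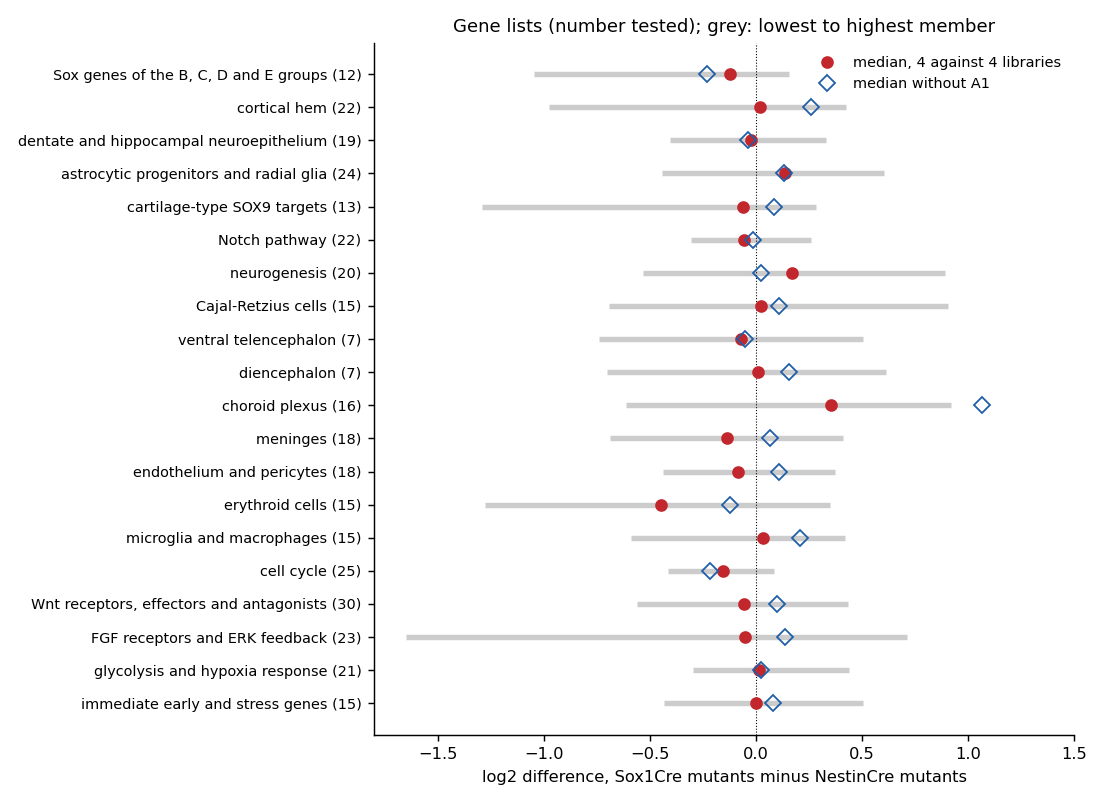
Log2 difference between Sox1Cre and NestinCre mutants (x axis) for 20 gene lists, with the number tested in parentheses; grey bars run from the lowest to the highest member, filled points are medians with all 8 libraries and open diamonds medians without A1. Most medians lie near 0, and the choroid plexus, erythroid and cortical hem medians move most when A1 is left out (0.35 to 1.06, -0.45 to -0.13 and 0.02 to 0.26).

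Most of what was called lay outside these lists, in pseudogenes and other near-identical copies of expressed genes. Processed pseudogenes are reverse-transcribed copies of an mRNA inserted elsewhere in the genome, and reads from a parent and such a copy often fit both. Of 530 processed pseudogenes tested 22 were called (4.15%), against 22 of 13908 protein-coding genes (0.158%). A copy was counted where transcripts shared at least 95% identity over at least 50% of the shorter one and at least 150 aligned bases. By that measure 29 of the 53 called genes had a near-identical copy, 24 of them lower and 5 higher in Sox1Cre mutants; several passed the filter on low values only through the group where they are high. Levels of these 29 genes are therefore uncertain one by one, and they are described with their families.

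The following stretches of 120 bases show how little separates a parent from its copies. They are from the coding sequence of the parent and its counterpart in the copy, GENCODE M21 on GRCm38, written 5′ to 3′ on the transcript strand. Capitals mark bases that differ between the parent and a copy. The ribosomal protein gene Rps3a1 (chr3:86137940-86142702, minus strand) and its copies Rps3a2 (chr14:88123017-88123808, minus strand) and Rps3a3 (chr13:108670603-108671397, plus strand) read:
Rps3a1: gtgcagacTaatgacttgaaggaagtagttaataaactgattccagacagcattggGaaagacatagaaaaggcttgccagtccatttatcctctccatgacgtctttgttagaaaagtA
Rps3a2: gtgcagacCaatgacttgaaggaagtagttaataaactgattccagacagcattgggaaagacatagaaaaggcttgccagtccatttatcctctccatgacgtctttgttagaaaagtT
Rps3a3: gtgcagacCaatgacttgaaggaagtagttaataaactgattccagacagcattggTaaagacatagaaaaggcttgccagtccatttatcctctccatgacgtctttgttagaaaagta

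Over the whole alignment Rps3a2 had 4 differences from Rps3a1 in 792 bases, with identical runs of up to 317 bases, and Rps3a3 had 9 in 795, with runs of up to 215. The ribosomal protein gene Rpl3 (chr15:80077791-80091868, minus strand) and Rpl3-ps1 (chrX:13202571-13203780, plus strand) differed at 2 of 1210 bases:
Rpl3: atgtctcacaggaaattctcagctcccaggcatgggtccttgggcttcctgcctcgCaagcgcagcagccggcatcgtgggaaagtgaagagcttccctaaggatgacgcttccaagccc
Rpl3-ps1: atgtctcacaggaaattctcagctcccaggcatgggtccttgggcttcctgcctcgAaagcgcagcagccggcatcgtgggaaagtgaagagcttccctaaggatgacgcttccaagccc

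Hmgb1, which encodes a chromatin protein (chr5:149046702-149184489, minus strand), Gm15387 (chr15:74093686-74094333, minus strand, 1 difference in 648) and Gm21596 (chr2:113919247-113920562, minus strand, 1 difference and 6 gap positions in 1317) read:
Hmgb1: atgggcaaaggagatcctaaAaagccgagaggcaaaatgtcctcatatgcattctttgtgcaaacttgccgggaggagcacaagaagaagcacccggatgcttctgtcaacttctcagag
Gm15387: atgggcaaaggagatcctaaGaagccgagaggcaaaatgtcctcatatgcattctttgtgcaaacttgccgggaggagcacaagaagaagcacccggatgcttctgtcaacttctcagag
Gm21596: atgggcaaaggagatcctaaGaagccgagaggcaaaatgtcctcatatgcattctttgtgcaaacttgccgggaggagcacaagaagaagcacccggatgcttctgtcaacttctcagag

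For these 3 families the copies were lower in Sox1Cre than in NestinCre mutants, and the parent had the opposite sign. Rps3a2 was 55.7, 65.6, 142 and 62.6 in Sox1Cre and 12275, 12441, 5342 and 5704 in NestinCre mutants (log2 difference -6.75), while Rps3a1 was 22441, 18058, 17959 and 19382 against 3916, 3937, 11119 and 11502 (1.54, limma adjusted p = 0.207). The Rps3a1 family as a whole summed to 19601 and 22633, a log2 difference of -0.21. Rpl3-ps1 was 2455, 1936, 2044 and 2100 against 13685, 23044, 20595 and 20891 (-3.17), and Rpl3 24390, 20592, 19992 and 21154 against 13115, 5129, 5314 and 5163 (1.71, limma adjusted p = 0.0635, and 0.0493 without A1). The Rpl3 family differed by -0.18. Hmgb1 was called, at 16190, 13660, 13495 and 13259 against 6326, 7027, 6949 and 9498 (0.94, limma adjusted p = 0.0186), with Gm15387 (-0.94) and Gm21596 (-3.36) lower, and a family difference of -0.06. The call for Hmgb1 was lost without A2, A3, A4, A17, A18 or A19 (limma adjusted p from 0.0597 to 0.127), and the call for Gm15387 without A19 (0.0582).

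Of the 20 families that contained a called gene, 10 had called members that made up at least 10% of the family in the group where they were higher, a limit chosen after the values were seen. In 9 of these, all with a coding member, the sums differed by between -0.21 and 0.24 on the log2 scale. In the other 10 the called members held at most 9.72%, so the sum follows the remaining members and says nothing about the called copy. Among the former, Rplp0 with its called copies Gm8730 (-9.26), Rplp0-ps1, Gm9625 (-4.34) and Gm14165 summed to 32161 and 36028 (-0.17), Capza1 with Gm3608 (-4.64) to 5973 and 5878 (0.02), and Rbpj, the DNA-binding partner of Notch, with Rbpj-ps3 (-2.78) to 5815 and 5735 (0.02). The tenth was Gm10524, which has no coding copy, at 324.9, 329, 367.8 and 313.2 in Sox1Cre and 32.5, 40.7, 22.9 and 25.6 in NestinCre mutants (3.44). In the controls it was 30.6, 209, 22.4 and 218 with Sox1Cre and 183, 189, 368 and 195 with NestinCre. Its levels thus did not follow the Cre line there. Among coding genes with a copy, Eif3j1, a translation initiation factor gene, was 1124, 833, 843 and 577 against 355, 365, 369 and 313 (1.23, limma adjusted p = 0.0304), and with Eif3j2 the family differed by 0.24. In the controls Eif3j1 was 641, 348, 897 and 372 with Sox1Cre and 332, 326, 361 and 376 with NestinCre. Its call was lost without A2, A3 or any NestinCre mutant (limma adjusted p from 0.108 to 0.160).

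The share of a family that was assigned to its parent fell into a few separate values in some families over the 16 E13.5 libraries. For Rps3a1 it was between 98.9% and 99.4% in all 4 Sox1Cre mutants, between 52.9% and 54.9% in A19, A20, A8 and A22 to A24, and between 15.6% and 16.7% in A17, A18, A5 to A7 and A21. For Capza1 the Sox1Cre mutants lay between 98.5% and 98.8%, and the other libraries lay either between 74.3% and 77.4% or between 48.2% and 52.0%. For Rpl3 and Hmgb1 some controls shared the level of the Sox1Cre mutants (Rpl3 91.0% in A8, Hmgb1 74.2% in A7). These families were picked after their values were seen, and others behaved differently. The share of Rnf26 took about 1 level in each group (86.8% to 88.2% in Sox1Cre and 70.2% to 71.1% in NestinCre mutants). That of Tuba1a, the most abundant member of its family, was spread without clear steps from 48.3% to 69.2%. Gm14150 and Tuba1c, called members of that family, did fall into steps. Gm14150 held 0.149% to 0.245% in A1 to A4 and A6 to A8, 2.62% to 3.43% in A5 and A21 to A24, and 5.90% to 7.62% in A17 to A20. In the same sets Tuba1c held 1.28% to 1.73%, 5.07% to 5.57% and 8.09% to 8.64%.

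**Figure D3:**
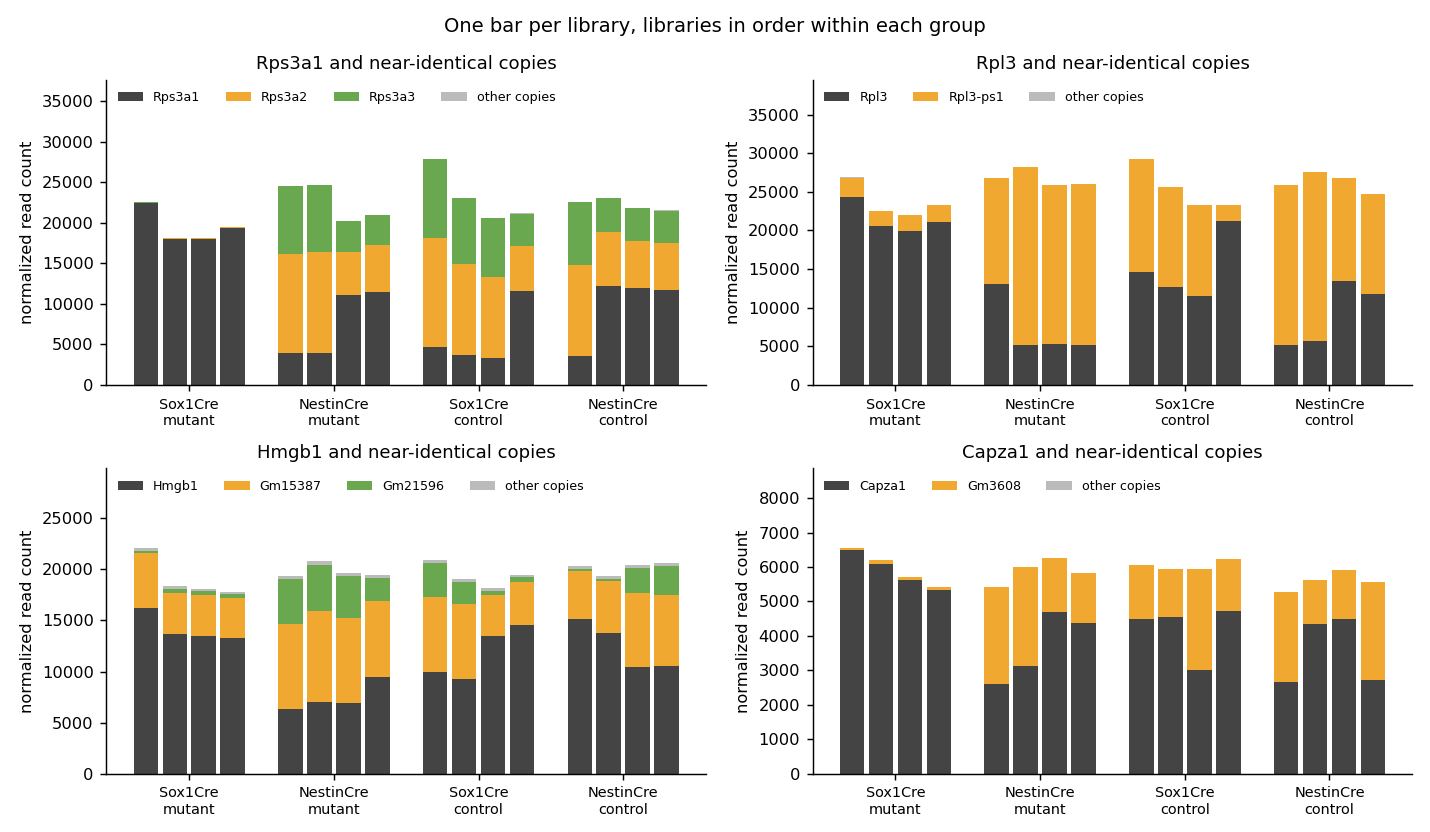
Normalized read counts (y axis) of Rps3a1, Rpl3, Hmgb1 and Capza1 with their near-identical copies, stacked, 1 bar per library in library order within the 4 E13.5 groups on the x axis. The height of the bars is similar across groups (Rps3a1 family means of 19601 and 22633 in the mutants), whereas the part assigned to the parent, in dark grey, differs between libraries (Rps3a1 between 15.6% and 99.4%).

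Of the called protein-coding genes, 17 had no near-identical copy. Besides Sox1, 7 were higher and 9 lower in Sox1Cre mutants. Srp9, a subunit of the signal recognition particle that guides secretory proteins to the endoplasmic reticulum, was 1498, 1396, 1332 and 1287 in Sox1Cre and 827.5, 850.1, 801.6 and 860.2 in NestinCre mutants. Each group was tight and they lay far apart, with a log2 difference of 0.72 (95% interval 0.58 to 0.86, limma adjusted p = 0.000823). The controls, at means of 978.9 ± 216 and 962.5 ± 297 (SD, n = 4 each), differed by 0.04, and the difference of the line difference (0.68) did not pass (limma adjusted p = 0.481).

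Saraf, a regulator of store-operated calcium entry, was 1712, 1557, 1952 and 1628 against 1117, 1100, 1133 and 1143 (0.60, limma adjusted p = 0.00799), and Lamtor3, a scaffold of MAPK and mTORC1 signalling on late endosomes, was 785.8, 709.5, 720.7 and 697.9 against 534.2, 493.8, 455.3 and 497.2 (0.56, limma adjusted p = 0.0143). 1190002N15Rik was higher by 0.43 (limma adjusted p = 0.00308), Rsad1 by 1.38 (means 141.1 ± 25.8 and 53.1 ± 6.03, SD, n = 4 each, limma adjusted p = 0.0141) and the tetraspanin gene Tspan5 by 0.31 (limma adjusted p = 0.0463). Fgl1 was near the detection limit, at 17.3, 10.7, 23.9 and 11.8 against 0, 0, 0 and 1.97. In the controls Saraf, Lamtor3, 1190002N15Rik, Rsad1 and Tspan5 had the same sign (0.27, 0.33, 0.32, 0.77 and 0.26) and were not called.

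Among the lower genes, Aldh2, the mitochondrial aldehyde dehydrogenase, was 1775, 2077, 2011 and 1983 against 2775, 2679, 3120 and 2519 (-0.50, limma adjusted p = 0.0416). The zinc finger gene Zfp277 was 85.8, 124, 87.5 and 111 against 491, 356, 490 and 266 (-1.94, limma adjusted p = 0.00672), with Sox1Cre controls spread from 239 to 565. Tcf24, a bHLH transcription factor gene, was at most 5.37 in any Sox1Cre mutant and at least 38.5 in every NestinCre mutant (-4.45, limma adjusted p = 0.0057). It passed the filter on low values only through the group where it is high, so this call is a description. Tcf24 was also called between the controls (-4.42, limma adjusted p = 0.000911). Cfap74, a ciliary gene, followed the same pattern (-2.15, and -1.42 in the controls, limma adjusted p = 0.0424 and 0.0372). Pdgfrl (-1.09), Rp9 (-0.40), Heatr5a (-0.33), the heparanase gene Hpse (-1.69) and Gm9936 (-2.71) made up the rest. Of the called protein-coding genes tested in the controls, 18 of 20 had the same sign there. These include genes with near-identical copies, and the share of matching signs over all genes tested was not computed.

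The calls for single genes depended on which libraries were kept. Srp9 and 1190002N15Rik passed with any 1 of the 8 left out. Tcf24 passed without any 1 Sox1Cre mutant, but without a NestinCre mutant it did not reach the filter and was not tested. Zfp277 was lost without A19 (limma adjusted p = 0.0501). Saraf was lost without A17, A18, A19 or A20 (0.051 to 0.0609), Lamtor3 without A2, A3, A18, A19 or A20 (0.0521 to 0.0926), Pdgfrl without A3, A17, A19 or A20 (0.0590 to 0.104) and Fgl1 without A17, A18 or A19 (0.0991 to 0.107). Rsad1, Aldh2, Rp9, Heatr5a and Tspan5 were lost without any 1 of the libraries other than A1, with adjusted p up to 0.0832, 0.172, 0.168, 0.195 and 0.218. Cfap74 was lost without A2, A4 or any NestinCre mutant (up to 0.191), Hpse without A2, A3, A4, A18, A19 or A20 (up to 0.180) and Gm9936 without A2, A3 or any NestinCre mutant (up to 0.203).

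**Figure D4:**
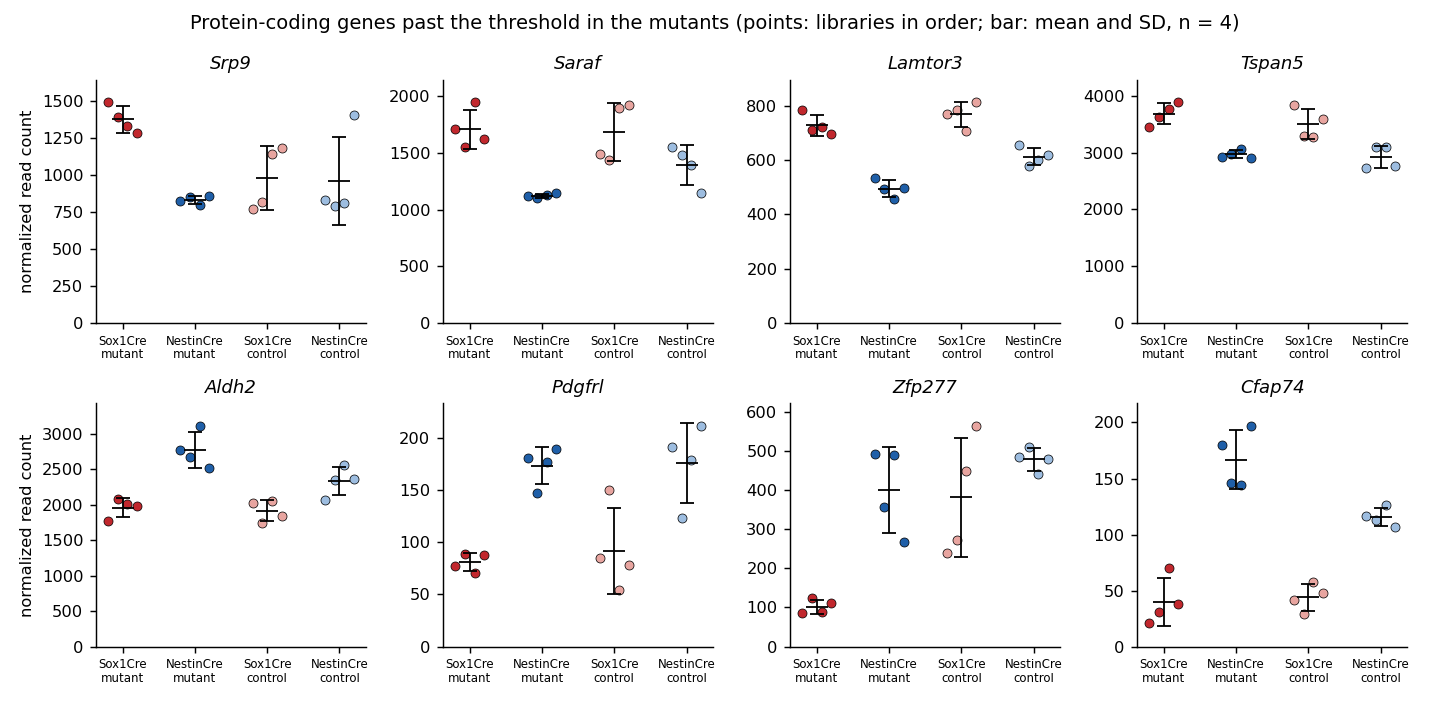
Normalized read counts (y axis) of 8 called protein-coding genes without near-identical copies in the 4 E13.5 groups (x axis); each point is 1 library and the bars give the mean and SD of 4. The mutants do not overlap for any of the 8, while the controls overlap for Srp9, Saraf, Pdgfrl and Zfp277 and are separate for Lamtor3, Tspan5, Aldh2 and Cfap74.

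Several of these genes lay on the chromosome that carries Sox1. Within 40 Mb of Sox1, 5 of 218 tested genes were called (2.29%), against 1 of 584 farther away (0.171%) and 0.340% of all genes. Of the 5, Saraf, Gm35021, Pdgfrl and Fgl1 lay 20 to 30 Mb from Sox1, where 40 genes were tested. Fgl1 and Gm35021 passed the filter on low values only through the group where they are high, so the count near Sox1 is a description, and Fgl1 was not tested without A1. The noncoding Gm35021 was 1.83, 0, 0.994 and 3.92 in Sox1Cre and 70.2, 48.4, 51.3 and 59.2 in NestinCre mutants (-4.65, limma adjusted p = 0.00295). Without A1 the counts were 12 of 214 near Sox1 (5.61%) and 8 of 579 beyond (1.38%), and they added Nek3, a kinase gene (-1.01, limma adjusted p = 0.0349), and Zdhhc2, a palmitoyltransferase gene (-1.64, limma adjusted p = 0.00877). Between the controls 2 of 220 genes in the same span were called, Sox1 and Nek3 (-1.31, limma adjusted p = 0.00693). Within 40 Mb of Sox9 on chromosome 11, 1 of 654 was called, Rsad1, against 1 of 537 farther away. Without A1 the counts were 17 of 653 near Sox9 (2.60%) and 8 of 535 beyond, where 1.73% of all genes were called. Of the 17, 9 lay among the 89 genes at 20 to 30 Mb. The span of 40 Mb was chosen after these values were seen, and linkage to Sox1 as against distance was not tested.

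**Figure D5:**
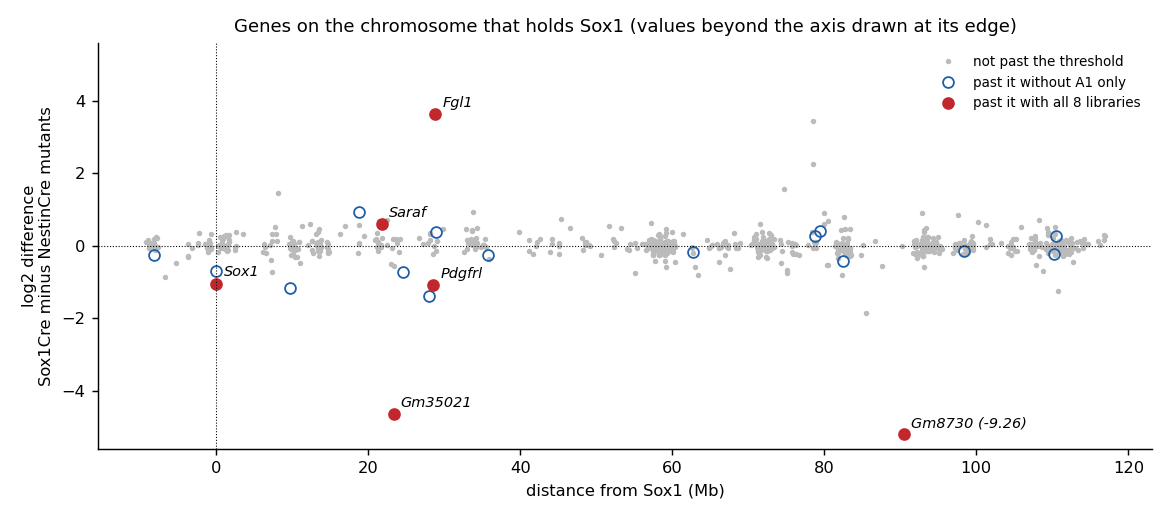
Log2 difference between Sox1Cre and NestinCre mutants (y axis) against distance from Sox1 in Mb (x axis) for 802 genes on chromosome 8; filled points were called with all 8 libraries, open circles only without A1, grey points neither. Of the 6 called genes 5 lie within 40 Mb of Sox1, and Gm8730 (-9.26) is drawn at the edge of the axis.

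Gm12666, Gm13123, Gm8778 and Gm10222 each had no read in 1 of the mutant groups. They passed the filter only through the other group, so their calls and folds are a description. Gm13123 and Gm8778 had no read in Sox1Cre mutants and were at least 22.6-fold and 9.32-fold higher in NestinCre mutants, with 3 reads in each library taken as the floor. Gm12666, a copy of Larp7, had no read in any Sox1Cre mutant and was 67, 134, 123 and 136 in NestinCre mutants, at least 38.7-fold higher. It was also at 0 in all 4 Sox1Cre controls and between 46.9 and 75.7 in NestinCre controls. Gm10222, a copy of mt-Nd4l, was at 0 in every NestinCre mutant and 120, 17.2, 260 and 101 in Sox1Cre mutants, at least 39.3-fold higher, but it was 2.26, 26.1, 1.07 and 971 in Sox1Cre controls, and at 0 in 3 NestinCre controls with 160 in A23. Gm12666, Gm13123 (a copy of Gcn1l1) and Gm10222 held 6.42%, 1.21% and 6.16% of their families in the group where they were higher. The family sums, which differed by 0.01, -0.05 and -0.48, thus follow the other members.

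Genes that separated the Sox1Cre controls of E12.5 from those of E13.5, which share no library with the mutants, gave a further description. Of 15503 genes, 1042 were called higher (6.72%) and 832 lower (5.37%) at E13.5. Stage and sex cannot be told apart here, since Xist lay between 3660 and 4451 in the 4 E12.5 libraries and between 1.07 and 2.26 in the 4 E13.5 libraries. With Xist as a covariate limma called 0 genes, with 1778 at an unadjusted p under 0.05, and without it edgeR called 1954 and DESeq2 2573. Of the genes higher at E13.5, 1037 were tested between the mutants, 799 (77.0%) were positive, the median log2 difference was 0.13 and 0 were called higher. Of those lower at E13.5, 804 were tested, 192 (23.9%) were positive, the median was -0.10 and 2 were called lower. Without A1 the shares were 69.4% and 40.8%, and the medians 0.10 and -0.05. The mean log2 level of the first set minus that of the second was 0.470, -0.312, 0.0701 and 0.716 in A1 to A4 and 0.163, -0.740, 0.162 and 0.182 in A17 to A20, so the groups overlapped and A18 was lowest. Whether this lean is particular to the mutants was not tested, because the control comparison shares the E13.5 Sox1Cre libraries that chose the genes.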

How the data were processed

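The members of the comparison and the gene lists were chosen with earlier results of these data known. The authors trimmed reads with Trimmomatic 0.36, aligned them to GRCm38 with STAR 2.5.2a and estimated gene levels with RSEM 1.2.31, per the submitters' processing notes, and deposited a table of counts divided by size factors (a normalized signal per gene and library). RSEM divides reads that fit several genes among them. The strand setting of the counting is not given in the sources used here. All columns were mapped to samples, and 51719 of 51912 gene identifiers were named through GENCODE M21. Each library's values were 100% whole multiples of 1 step within a tolerance of 0.01, so whole reads were recovered and serve for depth, edgeR and DESeq2.

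Differences were tested with limma 3.58.1 (trended eBayes, two-sided) on log2(normalized count + 1), with genes at 10 or more in at least 4 of the libraries compared and Benjamini-Hochberg adjustment over all genes tested. The log scale understates changes of low genes. The difference of the line difference between mutants and controls used all 16 E13.5 libraries. The fits were checked on simulated data, where DESeq2 made a larger share of false calls than limma and edgeR. The simulation gave all genes the same dispersion and changed only genes with a mean of at least 100. It had no library like A1 and no reads shared between copies, so this order need not hold for these data. Named genes were Sox9, Sox1, Sox2, Sox3, Nes, Hopx, Notch1, Xist and, per list, up to 4 called members or else the 2 most abundant, the 10 highest and 10 lowest called genes with a mean of at least 100 and no overlap (where fewer passed, the next by unadjusted p, as values), and 5 genes by the difference of the line difference. Any other gene was named after its values were seen. Lists are described by counts and medians, with no test. Copies were found with blastn 2.17.0, and the 120-base sequences come from the GENCODE M21 transcripts on GRCm38. Alternatives were edgeR 4.0.16 (quasi-likelihood, TMM) and DESeq2 1.42.0 on recovered reads, pseudocounts of 0.5 and 5, other filters, all 24 libraries in 1 fit, quantile normalization, robust eBayes, array weights, Xist as a covariate, no X and Y genes, leaving out each library and, added after seeing the data, protein-coding genes only. Analyses ran in Python 3.11.15 and R 4.3.3.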

Additional observations from a re-analysis of the deposited data

Results flagged for a closer look

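The line difference differed between mutants and controls for 13 of 16086 genes (0.0808%), tested as an interaction in limma with an adjusted p under 0.05. Of these, 1 was protein-coding (Gm9008) and the others were not. Their differences of log2 differences, mutants minus controls, were -8.08 for Rps3a3, -7.19 for Rps3a2, 3.71 for Gm16092, 6.18 for Gm9008, 4.24 for Gm13410, -4.52 for Gm3608, -4.77 for Gm8778, -5.39 for Gm45456, 5.51 for Gm7868, 3.56 for Gm5131, 3.17 for Gm29718, -4.24 for Hist1h2al and 4.999 for Gm10524. Rps3a2, Rps3a3, Gm3608, Gm45456, Hist1h2al and Gm10524 have near-identical copies, so their levels are uncertain one by one. Copies were searched only for genes called between the mutants. Gm8778, Gm45456 and Hist1h2al had means of only 0, 0.456 and 0.685 in Sox1Cre mutants. Gm9008, a near-identical copy of Rnf26, was 292, 278, 243 and 234 in Sox1Cre mutants and 599, 700, 594 and 625 in NestinCre mutants, and 3.40, 0.947, 0 and 0 in Sox1Cre controls and 303, 345, 288 and 261 in NestinCre controls.

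In 17 of 250 sets of 4 mutant libraries examined, 1 library lay far from the other 3 (by Dixon's gap over range), and chance gives about 1 in 20 such sets. Among the Sox1Cre mutants A1 was apart for Sox1 (2054), Ttr (5266), Hmgb1 (16190), Gm15387 (5366) and the mean log2 level of the choroid plexus genes (7.44), A2 for Heatr5a (1219) and A4 for Gm4202 (562), Gm9936 (13.7) and the mean log2 level of astrocytic progenitor and radial glia genes (11.004). Among the NestinCre mutants A18 was low for Ccnd2 (32122), Ctnnb1 (35051) and Pkm (43302), A17 was high for Rpl3 (13115), apart for Tuba1c (11576) and low for Gm12666 (67.0), and A20 was low for Gm21596 (2234) and apart for 5930430L01Rik (94.7).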

How the results depend on the processing

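Of the 53 called genes, 27 kept their call and sign under every alternative that could test them, 26 were lost under at least 1 and none reversed. Of 49 other genes named by the rule, 7 were called under at least 1 alternative. Some of the 27, such as Gm13123 and Tcf24, passed the filter only through the group where they are high. They were tested under 15 and 16 alternatives, against 21 for Srp9. Where a library of their high group was left out they were not tested, so keeping the call is a weaker statement for them. The count of 53 became 27 with a mean of at least 100, 174 with all 24 libraries in the fit, 1083 with array weights, 304 with DESeq2 and 11 with protein-coding genes only, and lay between 21 and 267 with a library left out. For the controls the 32 became 19 with a mean of at least 100 and 206 with DESeq2, and 5 to 28 with a library left out. The 13 genes of the interaction became 5 with a mean of at least 100, 7 with all 24 libraries, 228 with array weights, 72 with DESeq2 and 1 with protein-coding genes only, and 12 to 68 with a library left out. Between E12.5 and E13.5 controls, 0 genes were called with Xist as a covariate, which separates these groups completely, and 905 to 3003 with a library left out. The 1 called list member became 2 with all 24 libraries, 33 with array weights, 4 with DESeq2 and 0 with protein-coding genes only, and 0 to 14 with a library left out. Why the counts moved was not tested. With 4 libraries a group, a gene that was not called may still differ by an amount inside its printed interval. The intervals are per gene and not adjusted for the number of genes tested. A gene whose interval excludes 0 can therefore lack a call. No paired analysis was possible because the labels number no replicates across groups.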

Other observations

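The 13 protein-coding genes of the mitochondrial genome had 0 called and 10 negative log2 differences, and 4 were called without A1, where 1.73% of all genes were called (0.340% with all 8 libraries). mt-Co1, the core subunit of cytochrome oxidase, was 224676 in A1, 51857, 52699 and 44159 in A2 to A4, and 94413, 115217, 206362 and 112346 in NestinCre mutants. Its log2 difference was -0.80 with A1 and -1.35 without it. mt-Cytb of complex III was 92776 in A1 and 24861, 25082 and 22319 in A2 to A4 against 47604, 50452, 101105 and 55003 (-0.84, and -1.33 without A1). A1 was thus the highest Sox1Cre mutant for both genes, and A2 to A4 lay below all 4 NestinCre mutants.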
